A study of Mus musculus with 6 samples.

Results

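The cells described here were lymphatic endothelial cells of the mouse gut lamina propria, found in single-cell RNA sequencing libraries of cells sorted for a reporter of the cytokine gene Tslp. They were chosen by their own transcripts. A barcode was a member when it held at least 1 unique molecular identifier (UMI, a count of 1 captured transcript) of at least 3 of the 6 lymphatic genes Prox1, Lyve1, Flt4, Mmrn1, Reln and Ccl21a, and no UMI of Ptprc, Pdgfra, Plvap or Tslp. Ptprc marks hematopoietic cells, Pdgfra fibroblasts and Plvap blood capillaries. Of 102534 barcodes that passed the filters on genes, UMIs and mitochondrial share, 13483 (13.1%) were members. Of these, 13125 came from the small intestine and 358 from the cecum and large intestine.

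All mice were Flare-TSLP animals on a C57BL/6 background, in which a tdTomato reporter cassette sits in the Tslp locus, and every group compared here carried that allele. Lamina propria cells were sorted as live TSLP-tdTomato+ cells from the proximal jejunum (proximal, 2 libraries), the distal ileum (distal, 2 libraries), the cecum (1 library) and the large intestine (1 library). The labels give no treatment, age or sex, and no library of reporter-negative cells or of mice without the reporter was among them. Each library pooled cells tagged with 3 hashtag antibodies, and the labels do not tie a hashtag to a mouse, though the study's methods give multiplexing as the purpose of the hashtags and its text describes several biological samples for the small intestinal tissues. The small intestine (4 libraries) was compared with the large bowel, which here means the cecum and the large intestine together (2 libraries), and the proximal with the distal small intestine (2 against 2). The libraries are the replicates throughout. Nothing in the labels says that libraries of 1 region came from separate mice, so p-values measure the spread between libraries, which may be partly technical.

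Lymphatic endothelial cells line the vessels that carry interstitial fluid, immune cells and, in the small intestine, absorbed fat. In the intestine each villus holds a blind-ended lymphatic capillary, the lacteal, which takes up chylomicrons and drains through submucosal and collecting vessels to the mesenteric lymph nodes. The transcription factor PROX1 sets and keeps lymphatic identity, the receptor VEGFR3 (encoded by Flt4) receives the growth factors VEGF-C and VEGF-D, and the chemokine CCL21 draws dendritic cells and T cells towards the vessel. Lymphatic cells near the crypts are also known as a source of R-spondin 3 and WNT2, which act on epithelial stem cells.

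The rule's own genes describe how far inside it the members lay. Of the 13483 members, 12851 (95.3%) held UMIs of all 6 lymphatic genes, and 114 held exactly 3, the fewest that the rule allows. Just outside the rule, 6196 other kept barcodes held exactly 2 of the 6. The exclusion of the 4 other genes left out 7819 barcodes that also had at least 3 lymphatic genes, most of them for Pdgfra (6043) or Plvap (2374). The excluded barcodes held more UMIs, with library medians of 7395 to 13266 against 4468 to 6987 for the members. Where a UMI marks a second cell or free RNA in the droplet cannot be told apart here.

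The libraries held 103431341 to 189791386 UMIs in 11751 to 21299 kept barcodes each, and the summed members 801273 UMIs (cecum), 1554985 UMIs (large intestine) and 4332545 to 35734540 UMIs (small intestine). The members' sums thus had the least depth in the large bowel. Only 14 member barcodes recurred between libraries, over 15 library pairs. Several hashtags marked 0.625% to 10.6% of a library's members, and 0.595% to 1.01% had 2% or more of their UMIs on fibroblast genes. The labels name the cells as tdTomato+, but a tdTomato UMI was found in 150 members (0.996% to 1.79% of each library) and in 2861 other kept barcodes (1.51% to 4.42%), which were deeper. Thinned to 2500 UMIs the shares were 0.374%, 0.417%, 1.34%, 0.399%, 1.25% and 0% of members, in the order proximal 1, proximal 2, distal 1, distal 2, cecum and large intestine, against 0.7%, 0.343%, 1.22%, 0.452%, 1.84% and 1.24% of the others, so that members were lower in 4 libraries and higher in 2. The 0 of 198 large intestinal members allows a share of up to 1.52%. A Tslp UMI, which the rule excludes, was present in 108 of 13591 barcodes that met the rest of the rule (0.795%, exact 95% interval 0.652 to 0.959, median 5982 UMIs), in 1096 of 70061 Pdgfra barcodes (1.56%, median 8469 UMIs) and in 1 of 1441 Ptprc barcodes (0.0694%, interval 0.00176 to 0.386, median 6365 UMIs). The share with Tslp among the lymphatic barcodes was above the share in the Ptprc barcodes and below that in the fibroblast barcodes, at unequal depths.

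Members were a large share of the small intestinal cells in 3 of 4 libraries and a small share of the large bowel cells. They made up 12.4% of kept barcodes in proximal 1 (exact 95% interval 11.9 to 12.9), 26.7% in proximal 2 (26.1 to 27.4), 3.16% in distal 1 (2.92 to 3.40) and 27.2% in distal 2 (26.5 to 27.8). In the cecum the share was 1.15% (0.977 to 1.34) and in the large intestine 1.68% (1.46 to 1.93). The intervals cover counting error only. Every small intestinal library lay above both large bowel libraries. The replicate 1 libraries, proximal 1 (12.4%) and distal 1 (3.16%), lay below the replicate 2 libraries (26.7% and 27.2%). Both large bowel libraries carried the hashtag set of replicate 1, so the contrast of regions partly mixes region with that set. The part of that set in the difference was not tested. The mean share was 17.4% ± 11.7 (SD, n = 4) in the small intestine and 1.42% ± 0.380 (n = 2) in the large bowel, a difference of 15.9 points with p = 0.133 in a two-sided exact permutation test, the smallest p that 4 against 2 libraries can give. Without distal 1 the difference was 20.7 points. Thinning every barcode to 2500 UMIs gave shares of 14.7%, 31.7%, 4.16%, 32.7%, 1.43% and 2.14% in the same order of libraries.

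Shares differed between the hashtags of a library, and by more between the libraries of 1 small intestinal region. Among barcodes with 1 hashtag, the 3 hashtags gave 16.8% to 18.8% in proximal 1 and 31.4% to 40.7% in proximal 2. They gave 3.59% to 4.64% in distal 1 and 29.7% to 39.0% in distal 2. In the cecum they gave 1.07% to 1.89% and in the large intestine 1.46% to 2.22%. Each small intestinal library had all its hashtag shares above its whole-library share. Barcodes without a single called hashtag, which these shares leave out, thus held a lower share of members there. The proximal and distal means were 19.6% ± 10.2 and 15.2% ± 17.0 (SD, n = 2 each), and the difference of 4.41 points (exact permutation p = 1, smallest possible 0.333) turned to -7.59 points without distal 1 and to -2.78 points without proximal 2. No order of the proximal and distal share can therefore be given. In a sorted sample, the share is of the cells that passed the sort and not of the tissue, and the sort gate of each library was not analysed here.

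**Figure D1:**
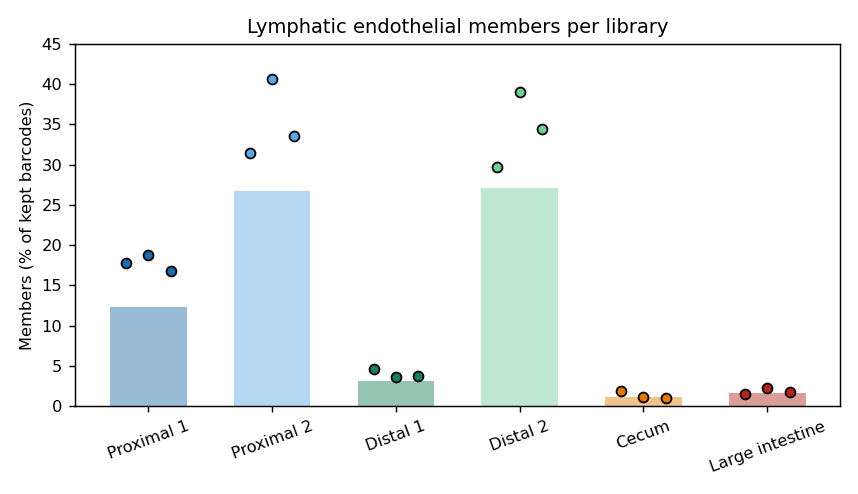
Share of kept barcodes that were lymphatic endothelial members (y axis, percent) in each of the 6 libraries (x axis); bars give the whole library and points its 3 hashtags among barcodes with 1 hashtag. The small intestinal libraries run from 3.16% to 27.2%, and both large bowel libraries lie below 2%.

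Levels below are CPM, which means UMIs per 1e6 UMIs of all members of a library summed, given in the order proximal 1, proximal 2, distal 1, distal 2, then cecum and large intestine. The 6 lymphatic genes chose the members, so their levels are a description. Prox1 stood at 1169, 1119, 1032 and 1087 in the small intestine and at 909 and 924 in the large bowel, with the smallest ratio of highest to lowest library of the 6. Flt4 stood at 1070 to 1255 against 795 and 769, Mmrn1, a multimerin of endothelial granules and matrix, at 4278 to 5098 against 3693 and 3920, and Reln, which encodes the secreted glycoprotein reelin, at 4044 to 4789 against 2234 and 2131. Lyve1, a hyaluronan receptor of lymphatic capillaries, went the other way, with 2278, 2367, 2566 and 2418 against 4261 and 4169. Ccl21a stood at 2775, 2660, 3969 and 2133 against 12191 and 11246. The small intestinal libraries lay above both large bowel libraries for Prox1, Reln, Flt4 and Mmrn1, and below both for Lyve1 and Ccl21a. Ccl21a has near-identical copies in the genome, among which reads can be split, and its level is uncertain for that reason.

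The contrast of members with the other kept barcodes is the rule's own, so it is described without a test. Of 15426 genes compared, 239 (1.55%) were at least 4-fold higher in the members of all 6 libraries on levels with 5 CPM added, and 445 (2.88%) at least 4-fold lower. The other barcodes include the 7819 left out for the 4 excluded genes. Without these, 308 genes were higher and 458 lower.

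Of the 25 genes outside the rule with the largest such ratios, several are well-known endothelial or lymphatic genes. Cldn5, the claudin of endothelial tight junctions, was at 532 to 1166 in members and 9.35 to 73.1 in the others, a ratio of at least 7.34 with 5 added to each. Cavin2, a coat protein of caveolae, was at 1975 to 2112 against 52 to 270.4, and Mmrn2, an endothelial matrix protein, at 376 to 647 against 6.48 to 85.6. Aqp1, a water channel, was at 451 to 2443 against 4.45 to 231. The scavenger receptors Stab1 (376 to 649) and Mrc1 (158 to 448), which take up hyaluronan fragments and mannosylated glycoproteins, were also among them, as were the guidance genes Sema3a (288 to 535), a repellent semaphorin, and Ephb1 (119 to 331), an ephrin receptor. Tll1, which encodes a procollagen protease, stood at 219.7 to 753, Dtx1, a Notch regulator, at 255 to 379.6, Gpm6a, a membrane glycoprotein best known from neurons, at 447 to 698, and Ccser1 at 155 to 1177. The remaining 13 were D5Ertd615e, Apba2, Pld5, Col23a1, Adgrg3, Sh3gl3, Galnt18, Lcn2, Kcnk5, Prkcq, Gmfg, Rapgef5 and Megf6, with a ratio of at least 7.01 on levels with 5 added in every library. Among these 25 genes the lowest ratio over the libraries ran from 7.01 to 8.51, and among the 6 genes of the rule from 7.8 to 8.85. The other barcodes of the same libraries thus held lymphatic RNA, as Prox1 at 56.7, 112, 17.4 and 127 in the small intestine and 9.18 and 12.7 in the large bowel shows.

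Of 16 lymphatic identity genes outside the rule, 10 were at least 4-fold higher in all 6 libraries and none lower, with summed levels of 7856 to 8909 in members and 968 to 1801 in the other barcodes. Nr2f2, which encodes the factor COUP-TFII that acts with PROX1, stood at 1169, 1131, 1135 and 1150 in the small intestine and 995 and 1105 in the large bowel. Tbx1, a T-box factor of lymphatic growth, stood at 140.2 to 191 in members and 1.6 to 18.9 in others, and Sox18, which induces Prox1 in development, at 104 to 198 and 0.565 to 26.3. Pdpn, a lymphatic surface marker, did not separate members from the rest, with 257 to 323 against 185 to 347, and it is a gene that gut fibroblasts also carry. Of 15 junction genes with a level to compare, 5 were at least 4-fold higher in all 6 libraries and 1 at least 4-fold lower, with the pan-endothelial adhesion molecule Pecam1 at 514 to 609.7 against 8.06 to 97.4.

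**Figure D2:**
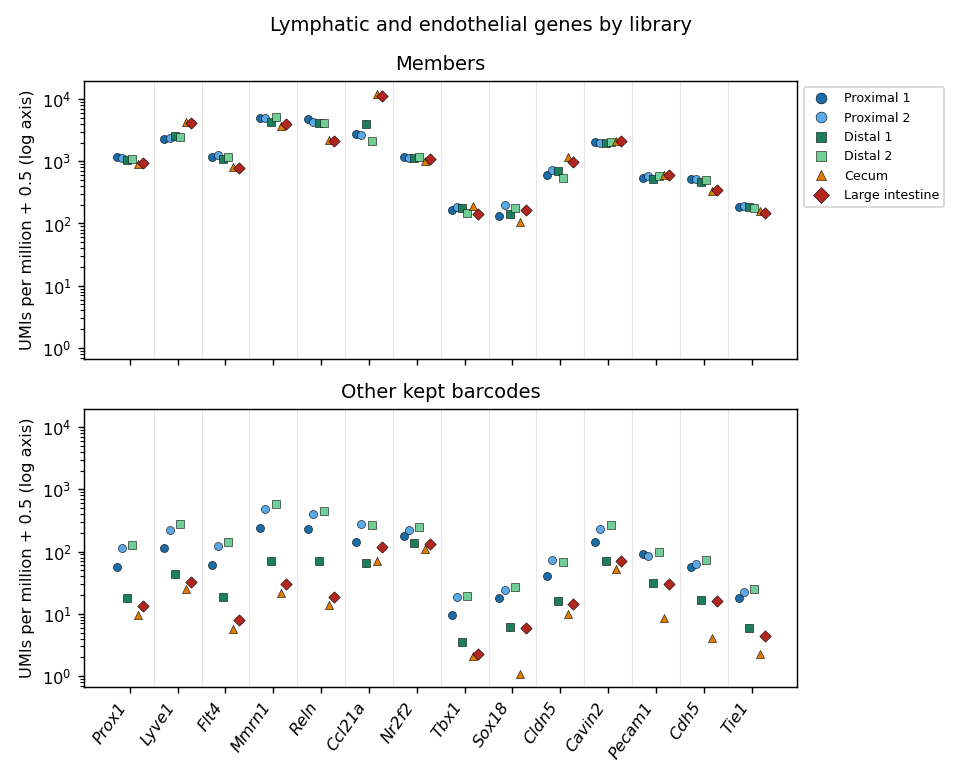
Levels of the 6 genes of the rule and of 8 further endothelial genes (x axis) in members (top) and in the other kept barcodes (bottom), as CPM plus 0.5 on a log axis, with 1 point per library. Each gene is higher in members than in the other barcodes of the same library, and in the other barcodes the small intestinal libraries lie above the large bowel libraries for most of the genes.

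Markers of other cell types were low in members but not all absent. Of 10 fibroblast genes, 9 were at least 4-fold lower in members of all libraries, with summed levels of 849 to 1580 in members against 25965 to 37819 in the others. Blood endothelial genes apart from Aqp1 and Emcn, which lymphatic cells also express, were low, with Vwf at 0.42 to 1.51, Ackr1 at 0 to 0.815 and Esm1 at 0 to 0.771. Immune markers summed to 32.4 to 3871 in members and 588 to 14081 in the others. Nearly all of it was Igkc (2120, 3216, 272 and 1274 in the small intestine, 21.2 and 77.2 in the large bowel), an antibody light chain, and Jchain, the joining chain of secreted antibody (409, 639, 64.2 and 313 in the small intestine, 3.74 and 14.8 in the large bowel), while Cd3e, a T cell gene, was at 0 to 0.168. Epithelial markers summed to 2.5 to 223 and were led by Defa24 (161, 42.6, 3.69 and 33.5 in the small intestine, 0 and 0.643 in the large bowel), a Paneth cell defensin. A few members carried much of these levels. Members with at least 10 Igkc UMIs, 1.64% of members in proximal 1, 2.96% in proximal 2, 0.298% in distal 1 and 1.03% in distal 2, held 81.2%, 87.4%, 15.4% and 79.6% of the Igkc UMIs, with up to 13380 in 1 member, and without them Igkc stood at 409, 420, 231 and 263. The 8, 43, 1 and 11 members with at least 10 Jchain UMIs held 73.5%, 85.4%, 21.9% and 79.4% of the Jchain UMIs. For Defa24, 2 members held 43.6% of the UMIs in proximal 1 and 5 held 56.9% in proximal 2. Igkc, Jchain and Defa24 were higher in droplets of at most 100 UMIs than in members of the small intestine, where the 12 immune markers summed to as much as 26530 CPM of free RNA. Smooth muscle and pericyte markers summed to 33.7 to 566, with Acta2, a smooth muscle actin, highest in distal 2 (79.2, 33, 18.7 and 133), where the 1.25% of members with at least 10 Acta2 UMIs held 81.1% of them, and glia markers to 1.29 to 4.84.

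Small intestinal and large bowel members differed in many genes. In edgeR's quasi-likelihood test over 14102 genes with enough counts, 1923 (13.6%) passed an adjusted p of 0.05, 1092 higher in the small intestine (7.74%) and 831 higher in the large bowel (5.89%), with a median log2 fold change of 0.04 over all genes. The test excluded the 10 genes of the rule. The gene lists used below were chosen with earlier results of these data known. The share of a list that was called, set beside the share of all genes, is therefore a description and no test of enrichment. A gene entered it at about 1.08 CPM in at least 2 libraries, and 44 of the calls were under that level in all small intestinal libraries and 48 in both large bowel libraries, so that they could enter only through the region where they were high. Of the genes named here these are E330013P04Rik, Pitx1 and Car1 (large bowel) and Pkd2l1 and Fabp2 (small intestine). Their levels are given without a fitted fold change or p from this test, and their calls, though counted in their lists, support nothing. Cyp1b1, Cyp26b1, Prkcb, Adamts15, Slc16a7 and Sult5a1 reached that level in only 1 large bowel library. They too could not enter without the small intestine, where they were high, and are treated in the same way. The count depended on both large bowel libraries, which each stand for their region alone: 710 genes passed without the cecum and 676 without the large intestine, and 2685 without distal 1. With limma-voom 1268 passed, 46.1% of them higher in the small intestine, against 56.8% in the main test. Fold changes below are log2 of small intestine over large bowel ± standard error (n = 4 and 2 libraries), so that negative values are higher in the large bowel, and adjusted p-values are from edgeR with the Benjamini-Hochberg method over all genes tested. The cecum and large intestine libraries carried the hashtag set of the replicate 1 libraries. With the small intestinal replicate 1 libraries alone, which carried that same set, 1109 genes passed.

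The 10 genes with the largest small intestinal excess were Pkd2l1, Cyp1b1, Cyp26b1, Prkcb, Wnt2, Adamts15, Slc16a7, Fabp4, Sult5a1 and Zmat4, of 701 that met the rule for level and separation. Pkd2l1 (chr19:44136076-44180881), which encodes a polycystin-family cation channel, stood at 53.1, 55.7, 78.7 and 73.6 in the small intestine, with 5616 UMIs in all, and had no UMI in either large bowel library. Against a floor of 3 counts over the large bowel group, the ratio of counts is at least 49.7, given as a description only.

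Of the 10, Cyp26b1 and Cyp1b1 encode cytochrome P450 enzymes. Cyp26b1 (chr6:84548396-84570890), which encodes an enzyme that breaks down retinoic acid, stood at 473, 669.7, 442 and 719.7 in the small intestine and at 6.24 and 0.643 in the large bowel. Its 57311 small intestinal UMIs stood against 6 in the large bowel, a ratio of 254 per UMI of members (counting interval 117 to 692). Cyp1b1, whose enzyme acts on retinoids, steroids and aromatic compounds, stood at 180.1, 307, 156 and 309 against 2.5 and 0, a ratio of 330 (91.3 to 2723) from 24823 and 2 UMIs. In both genes proximal 2 and distal 2 were above proximal 1 and distal 1, and all 4 were far above the large bowel.

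Several factors known to act on the epithelial stem cell niche were higher in the small intestine. Wnt2 (chr6:17985468-18031892), a canonical WNT ligand, stood at 140.4, 181, 140.3 and 149 against 2.5 and 1.29, with 14171 UMIs against 4 (log2 fold change 6.52 ± 0.34, adjusted p = 2.85e-05). The ratio of Wnt2 counts per UMI of members was 94.1, with a counting interval of 36.8 to 346. With so few large bowel UMIs its size is thus less certain than that standard error shows. Rspo3 (chr10:29327285-29411876), which encodes a secreted enhancer of WNT signalling, stood at 281, 338, 281 and 337 against 169.7 and 139 (1.04 ± 0.16, adjusted p = 0.00514), and the call was lost without the large intestine library (adjusted p = 0.0551). The Wnt2 difference held in every alternative tried, and a Wnt2 UMI was found in 27.8% to 35.8% of small intestinal members thinned to 2500 UMIs, in 0.625% of cecal members so thinned and in 0 of 198 large intestinal ones, which allows a share of up to 1.52%. Before thinning the shares were 53.4% to 66.7% in the small intestine, 1.25% for cecal members and 1.01% for large intestinal ones. In the thinned other kept barcodes, which include the excluded lymphatic barcodes, the share was 0.509% to 3.61% over the 6 libraries. The thinned cecal share lay inside that range and the large intestinal share of 0 below it. Of 15 niche genes tested, 4 were higher in the small intestine and none in the large bowel (26.7% called, against 7.74% of all genes in that direction, median log2 fold change 0.58), the others being Ntn1 (0.58 ± 0.16, adjusted p = 0.0427), a netrin guidance cue, and Grem1 (2.17 ± 0.54, adjusted p = 0.0316), a BMP antagonist that is also a fibroblast marker. Grem1 was at 26.9, 13.2, 20.5 and 20.7 in small intestinal members, at 1.25 and 6.43 in those of the large bowel and at 420.1 to 634 in the other barcodes of the small intestine. The Grem1 call was kept in 12 of 15 alternatives and that of Ntn1 in 9 of 16, and both were lost without the cecum.

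Of 19 genes of lipid handling, 3 were higher in the small intestine and none in the large bowel (15.8% called, against 7.74% of all genes in that direction, median 0.09). Fabp4 (chr3:10268785-10273737), a fatty acid binding protein of endothelium and adipocytes, stood at 751, 571, 845 and 668 against 23.7 and 19.9 (5.08 ± 0.25, adjusted p = 2.59e-05), and a Fabp4 UMI was present in 65.9% to 77.5% of thinned small intestinal members against 1.25% of cecal and 2.02% of large intestinal members. Cd36, a fatty acid translocase, stood at 54.7, 58.5, 52.4 and 53 against 23.7 and 6.43 (2.13 ± 0.36, adjusted p = 0.00678). Lpl, lipoprotein lipase, stood at 70.9, 80.3, 85.4 and 113 against 15 and 32.8 (1.79 ± 0.29, adjusted p = 0.00585) and just lost its call without the cecum (adjusted p = 0.0508). Gpihbp1, which anchors that lipase on endothelium, stood at 206, 232, 331 and 211 against 383 and 259 (-0.36 ± 0.24, adjusted p = 0.331) and the cholesterol exporter Abca1 at 413, 354, 586 and 549.9 against 513 and 424 (0.04 ± 0.22, adjusted p = 0.921), both with overlapping groups.

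The other genes in the small intestinal set had varied roles. Prkcb, a protein kinase C, stood at 87, 88.8, 76.4 and 80.7 against 1.25 and 0. With 1 large bowel UMI its ratio was 200, with a 95% counting interval of 35.8 to 7891. Adamts15, a matrix protease, stood at 55.4, 97.8, 39.2 and 70.2 against 2.5 and 0. With 2 large bowel UMIs its ratio was 91.2, with an interval of 25.2 to 753. Zmat4, a zinc finger gene, stood at 151, 185, 174 and 177 against 2.5 and 13.5 (4.21 ± 0.31, adjusted p = 0.000129). Slc16a7, a monocarboxylate transporter, stood at 38.1 to 73.1 against 0 and 1.93 and Sult5a1, a sulfotransferase, at 31.4 to 49.9 against 3.74 and 0.643, with 3 and 4 large bowel UMIs and ratios of 49.3 (16.9 to 239) and 24.8 (9.67 to 91). The call of Zmat4 held in every alternative. The values of Prkcb, Adamts15, Slc16a7 and Sult5a1 are a description only, and nothing is read from how often they were called.

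The 10 genes with the largest large bowel excess were E330013P04Rik, Ptn, Comp, Htr2b, Pkhd1l1, Slc8a1, Stmn2, Clca3a1, Tgfbi and Ddah1, of 380 that met the same rule. The calls of the 9 other than E330013P04Rik held in every alternative tried. Comp (chr8:70826192-70834716), cartilage oligomeric matrix protein, stood at 1.26, 1.46, 1.62 and 1.57 in the small intestine and at 46.2 and 59.8 in the large bowel (-5.15 ± 0.21, adjusted p = 7.31e-06). Pkhd1l1 (chr15:44320818-44464765), a fibrocystin-like membrane protein, stood at 6.94, 7.72, 8.08 and 6.55 against 137 and 154 (-4.31 ± 0.13, adjusted p = 1.37e-06). Both were also low in the other barcodes of every library (Comp 0.161 to 0.46, Pkhd1l1 0.2 to 1.43), so that the large bowel members held the highest level of any group.

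Several of these genes encode secreted or surface proteins. Ptn, the growth factor pleiotrophin, stood at 3.99, 1.65, 1.62 and 1.08 against 33.7 and 153 (-5.62 ± 0.56, adjusted p = 0.000499), and Tgfbi, a matrix adhesion protein, at 12.7, 8.23, 15.7 and 15.9 against 155 and 131 (-3.44 ± 0.25, adjusted p = 0.000112). Htr2b, a serotonin receptor, stood at 1.75, 3.05, 3.92 and 4.28 against 69.9 and 70.1 (-4.40 ± 0.29, adjusted p = 8.9e-05). The cecum and large intestine differed most in Ptn. Slc8a1, a sodium and calcium exchanger, stood at 36.5, 24.4, 33.7 and 59.8 against 588 and 757, Stmn2, a microtubule-binding stathmin, at 16.1 to 29.5 against 271 and 302, and Ddah1, which degrades an inhibitor of nitric oxide synthase, at 11.2 to 22.6 against 155 and 179. Clca3a1, known as a marker of lymphatic endothelium, stood at 6.44 to 11.1 against 101 and 102 (-3.62 ± 0.21, adjusted p = 4.44e-05) and the noncoding E330013P04Rik at 0.35 to 0.903 against 39.9 and 90. Ptn and Slc8a1 were also well expressed in the other barcodes of the large bowel (Ptn 51.3 and 122, Slc8a1 376 and 671). In the cecum Ptn was lower in members than in the other barcodes. The part of RNA from other cells in the members' levels of these 2 genes was not tested.

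**Figure D3:**
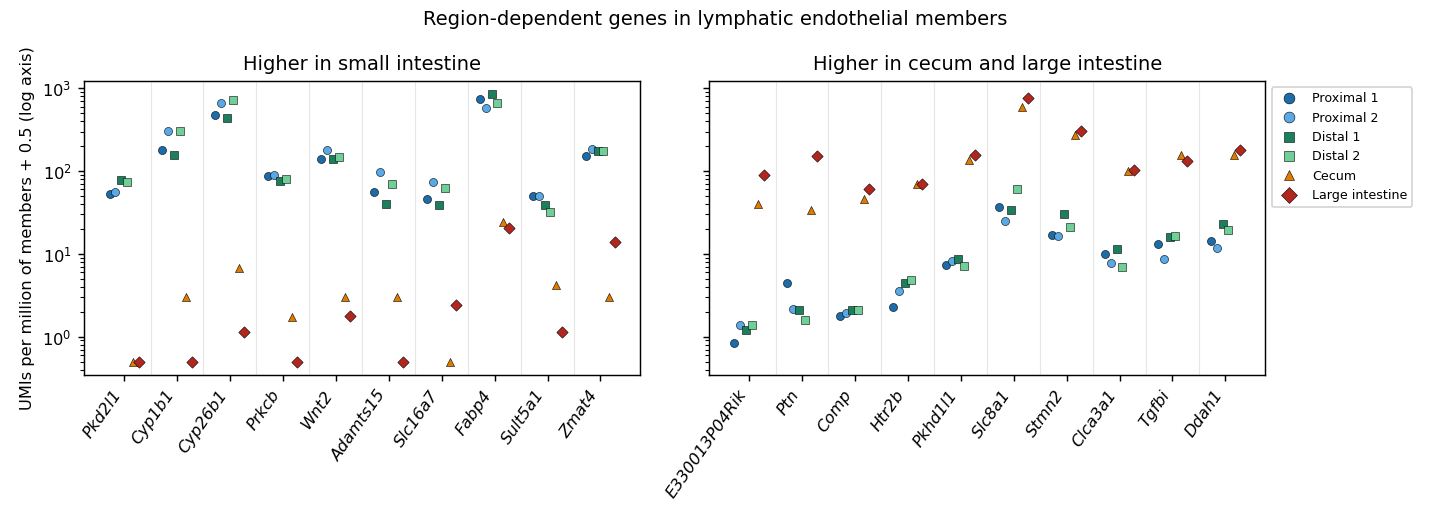
Levels in members (CPM plus 0.5, log axis) of the 10 genes with the largest excess in the small intestine (left) and in the cecum and large intestine (right), with 1 point per library. The 20 genes were named among calls whose libraries did not overlap, so the gap between the regions in the plot follows from that rule.

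Lymphatic identity genes were present in members of both regions, and several differed in level. Of the 16 tested, 3 were higher in the small intestine and 4 in the large bowel (43.8% called against 13.6% of all genes, median -0.04). Nrp2, a co-receptor of VEGFR3, stood at 1553, 1887, 1549 and 1968 against 750.1 and 876 (1.12 ± 0.17, adjusted p = 0.00469), the factor Maf at 2024, 1689, 1801 and 1817 against 698 and 913 (1.21 ± 0.17, adjusted p = 0.00257) and Mrc1 at 432, 448, 355 and 427 against 168 and 158 (1.38 ± 0.15, adjusted p = 0.000925). In the other direction, Fgl2, a fibrinogen-like protein with immune functions, stood at 1270, 1336, 1463 and 1451 against 2857 and 2516 (-0.94 ± 0.15, adjusted p = 0.00543) and Thy1, a surface glycoprotein, at 154, 152, 127 and 119 against 329 and 271 (-1.09 ± 0.16, adjusted p = 0.00372). Ackr2, a scavenger of inflammatory chemokines, stood at 59.5, 53.6, 72.9 and 53.8 against 144 and 171 (-1.39 ± 0.15, adjusted p = 0.000793), and Clca3a1 is given above. In each of these 7 genes the groups did not overlap, and all calls but that of Nrp2 (without the cecum, adjusted p = 0.0506) held in every alternative. Nr2f2 (0.15 ± 0.13, adjusted p = 0.467), Tbx1 (0.06 ± 0.17, adjusted p = 0.849) and Pdpn (-0.15 ± 0.13, adjusted p = 0.46) did not pass.

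Calls among growth factor receptors and their partners were all in the direction of the small intestine. Of 18 genes of VEGF and adrenomedullin signalling tested, 5 were higher there and none in the large bowel (27.8% called, against 7.74% of all genes in that direction, median 0.75). Angpt2, the angiopoietin that acts in lymphatic remodelling, stood at 226, 229, 159 and 168 against 83.6 and 61.1 (1.5 ± 0.24, adjusted p = 0.00522), and Plxnd1, a semaphorin receptor, at 99.2, 113, 99 and 124 against 44.9 and 59.8 (1.06 ± 0.16, adjusted p = 0.00467). Kdr, which encodes VEGFR2, stood at 798, 890.5, 721 and 808 against 603 and 417 (0.68 ± 0.19, adjusted p = 0.0468) and Pgf, placental growth factor, at 79.8, 76.6, 74.1 and 61.3 against 46.2 and 39.2 (0.83 ± 0.18, adjusted p = 0.0203). Nrp2 is the fifth. Of these only Plxnd1 kept its call in every alternative, and Angpt2 lost it only without the large intestine (adjusted p = 0.0726). The adrenomedullin receptor genes Calcrl (719.6, 605, 602 and 675 against 499 and 537, 0.35 ± 0.14, adjusted p = 0.115) and Ramp2 (496, 427, 768 and 406 against 768 and 741, -0.50 ± 0.25, adjusted p = 0.197) did not pass.

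Among 15 junction genes tested, 4 were higher in the small intestine and 1 in the large bowel (33.3% called against 13.6% of all genes, median 0.17), each with a small change. Cdh5, which encodes VE-cadherin of adherens junctions, stood at 522, 509.9, 457 and 505 against 329 and 339 (0.60 ± 0.13, adjusted p = 0.0176), and Cldn5 at 608, 722, 709 and 532 against 1166 and 980.1 (-0.72 ± 0.17, adjusted p = 0.0293). The phosphatase Ptprb (0.84 ± 0.15, adjusted p = 0.00831), the catenin gene Ctnnd1 (0.70 ± 0.14, adjusted p = 0.0126) and the paracingulin gene Cgnl1 (0.61 ± 0.16, adjusted p = 0.0337) were the others. All 5 lost their call in at least 1 alternative, and without the cecum none of the 5 passed. Pecam1 stood at 545, 577, 514 and 569 against 593 and 609.7 (-0.10 ± 0.13, adjusted p = 0.634).

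Valve and Notch genes gave few calls. Of 13 valve and collecting vessel genes, Itga9, an integrin of valve leaflets, was higher in the small intestine (528, 569, 519 and 586 against 248 and 335, 0.94 ± 0.15, adjusted p = 0.00515), as was the matrix gene Emilin1 (0.58 ± 0.13, adjusted p = 0.018), while the planar polarity gene Celsr1 (12.2, 13.4, 14.3 and 13 against 30 and 46.3, -1.55 ± 0.18, adjusted p = 0.00123) was higher in the large bowel. That is 23.1% of the list against 13.6% of all genes, with a median of -0.03. The Itga9 and Celsr1 calls held in every alternative, and that of Emilin1 was kept in 11 of 16, being lost without proximal 2, the cecum or the large intestine, with the replicate block and with replicate 1 libraries only. Foxc2, the main valve transcription factor, stood at 20.2, 20.5, 27.5 and 18.9 against 39.9 and 29.6 (-0.63 ± 0.23, adjusted p = 0.0951). Of 11 Notch genes, the targets Heyl (1.54 ± 0.31, adjusted p = 0.0142) and Hey1 (-0.53 ± 0.13, adjusted p = 0.0323) passed in opposite directions (18.2% called against 13.6% of all genes), and the ligand Dll4, known to act in lacteals, stood at 102, 124, 91.2 and 125 against 93.6 and 90 (0.31 ± 0.17, adjusted p = 0.255). Both Notch calls were lost without the cecum and with limma-voom, and that of Hey1 also without proximal 1 or the large intestine.

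Genes of leukocyte trafficking split by direction, with 4 of 18 higher in the small intestine and 4 in the large bowel (44.4% called against 13.6% of all genes, median -0.06). Il33 (chr19:29902483-29938933), an alarmin cytokine that acts on type 2 lymphocytes, stood at 479, 463, 505 and 439 in the small intestine against 112 and 55.9 in the large bowel (2.57 ± 0.27, adjusted p = 0.000608), a difference that held in every alternative. An Il33 UMI was found in 59.8% to 61.9% of thinned small intestinal members, in 18.8% of cecal and in 10.1% of large intestinal members. The lymphocyte exit receptor gene S1pr1 (0.54 ± 0.15, adjusted p = 0.0473), the sphingosine phosphate lyase gene Sgpl1 (0.80 ± 0.21, adjusted p = 0.0402) and the C-type lectin gene Clec1a (0.52 ± 0.14, adjusted p = 0.0358) were also higher in the small intestine, with changes under 2-fold, and the S1pr1 call was kept in 4 of 16 alternatives.

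Higher in the large bowel were Il7, a survival cytokine of lymphocytes, at 142, 154, 149.8 and 165 against 219.7 and 208 (-0.45 ± 0.12, adjusted p = 0.0343), Ackr3, a scavenger of CXCL12, at 306, 259.6, 275 and 256 against 351 and 519 (-0.64 ± 0.16, adjusted p = 0.0284), the kinase gene Sphk1 (1.05, 0.895, 1.62 and 1.31 against 11.2 and 6.43, -2.83 ± 0.45, adjusted p = 0.00549) and the chemokine gene Ccl5 (1.68, 1.46, 1.85 and 1.43 against 0 and 28.3, -3.33 ± 0.71, adjusted p = 0.0179). The Ccl5 level came from the large intestine alone, with no UMI in the cecum, and its direction turned without that library. Of the 8 calls only that of Il33 held throughout. Spns2, the transporter that exports sphingosine phosphate, stood at 136, 130.4, 155 and 132 against 186 and 161 (-0.30 ± 0.13, adjusted p = 0.16). Selp, P-selectin, stood at 16.7, 18.2, 28.2 and 35.6 in the small intestine, 179.7 and 3.22 in the large bowel, so that the cecum was far above every other library.

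Class II antigen presentation genes were higher in the large bowel members. Of 14 genes of antigen presentation, 5 were higher there and none in the small intestine (35.7% called, against 5.89% of all genes in that direction, median -0.13), and the 5 were H2-Aa, H2-Ab1, H2-Eb1, H2-DMa and Cd74. H2-Aa (chr17:34493404-34506798), a class II alpha chain, stood at 84.6, 77, 91.9 and 76.2 in the small intestine against 172 and 419 in the large bowel (-1.84 ± 0.25, adjusted p = 0.00246), and H2-Ab1, its beta chain partner, at 60.1, 57.6, 62.1 and 52.6 against 172 and 273 (-1.93 ± 0.16, adjusted p = 0.000179). H2-Eb1 (chr17:34504236-34535648) stood at 76.3, 75, 94.9 and 74.9 against 247 and 468 (-2.15 ± 0.20, adjusted p = 0.000399). Cd74, the invariant chain that escorts class II molecules, stood at 175, 199.8, 156 and 166 against 480.5 and 997 (-2.05 ± 0.23, adjusted p = 0.000882), and H2-DMa, which helps to load peptide, at 10.7, 10.5, 10.4 and 10.5 against 27.5 and 53.4 (-1.97 ± 0.22, adjusted p = 0.0008). In all 5 the large intestine was highest, the cecum second and the 4 small intestinal libraries below both. The levels were uneven between the hashtags of a large bowel library. Cd74 stood at 814, 313 and 276 in the 3 hashtags of the cecum and at 1231, 1350 and 477 in those of the large intestine, against 99.6 to 209 over the 12 hashtags of the small intestine. H2-Aa stood at 324, 81 and 98.1 in the cecum and 646, 447 and 222 in the large intestine, against 54.6 to 126, so that 2 hashtags of the cecum lay inside the small intestinal range. By hashtag the regions overlapped for H2-Aa, H2-Ab1 and H2-DMa and did not for Cd74 and H2-Eb1, in 43 to 75 members for each large bowel hashtag. For H2-Eb1 they nearly touched, with 124.5 in the highest small intestinal hashtag and 125.1 in the lowest large bowel one. H2-Aa and H2-Eb1 overlap on opposite strands of the annotation, and the kit reads 1 strand.

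The class II calls held in every alternative tried, including the subtraction of free RNA at a fixed 10% of each sum. Their sizes moved with 1 library left out. The log2 fold change ran from -2.32 to -1.04 for H2-Aa, from -2.20 to -1.54 for H2-Ab1 and from -2.51 to -1.60 for H2-Eb1. It ran from -2.30 to -1.35 for H2-DMa and from -2.48 to -1.43 for Cd74. Thinned to 2500 UMIs, a Cd74 UMI was present in 24.4% to 30.1% of small intestinal members, 44.4% of cecal members and 64.1% of large intestinal members, and an H2-Aa UMI in 14.9% to 16.7%, 25.6% and 50%. The members hold no Ptprc UMI by rule, and the 12 other hematopoietic markers summed to 347 to 3871 in the small intestine and to 32.4 and 105 in the large bowel, nearly all of it from the antibody genes Igkc and Jchain. The other 10 summed to 12.8, 16.1, 10.8 and 9.17 in the small intestine, 7.49 for the cecum (6 UMIs) and 13.5 for the large intestine (21 UMIs). Of these, the myeloid genes Lyz2 (1.19, 1.79, 4.62 and 1.54 against 1.25 and 6.43) and C1qb (1.05, 0.588, 0.923 and 0.874 against 0 and 3.86) were highest in the large intestine, where the class II genes were highest too, whereas Cd52 (4.13, 5.99, 1.38 and 1.66 against 2.5 and 0.643), a lymphocyte surface glycoprotein, and C1qa (1.96, 1.62, 1.62 and 1.31 against 1.25 and 0.643), a complement gene of macrophages, were lowest there. The part of myeloid RNA in the class II levels was not tested. In the other kept barcodes Cd74 stood at 129, 136, 106 and 79.6 in the small intestine and at 30.5 and 136 in the large bowel, so that the cecum was lowest and the large intestine near the proximal libraries. The class I genes H2-K1 (3131, 2828, 3540 and 2796 against 2839 and 3154, 0.06 ± 0.17, adjusted p = 0.842) and B2m (0.42 ± 0.16, adjusted p = 0.108) did not pass, nor did Ciita, which encodes the class II transactivator, at 5.19, 6.07, 6.23 and 7.45 against 2.5 and 18.6 (-0.92 ± 0.46, adjusted p = 0.21).

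**Figure D4:**
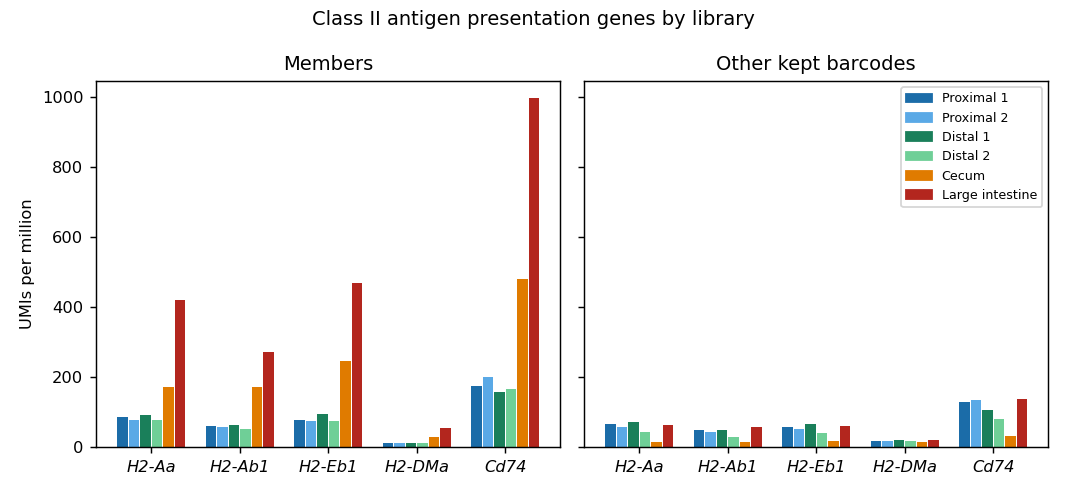
Levels of 5 class II antigen presentation genes (x axis) in CPM (y axis, from 0) for members (left) and other kept barcodes (right), with 1 bar per library. In members the cecum and large intestine bars stand above all 4 small intestinal bars for each gene, and in the other barcodes the cecum bar is the lowest.

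Interferon response genes gave 3 calls of 19 (15.8%, near the 13.6% of all genes, median -0.07). Ifitm3, an interferon-induced membrane protein, stood at 1452, 1492, 2125 and 1380 against 3559 and 3138 (-1.03 ± 0.20, adjusted p = 0.013), while Rsad2 (217, 209.8, 135 and 164 against 98.6 and 41.8, 1.49 ± 0.35, adjusted p = 0.0244) and Ifit2 (82.1, 115, 81.7 and 119 against 51.2 and 55.3, 0.93 ± 0.22, adjusted p = 0.027) were higher in the small intestine. Isg15, an interferon-induced ubiquitin-like protein, stood at 115, 119, 144 and 120.5 against 159.7 and 110.0, without passing. All 3 calls were lost without the large intestine.

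Several regional transcription factor genes differed along the gut in members. Of 28 tested, 3 were higher in the small intestine and 5 in the large bowel (28.6% called against 13.6% of all genes, median 0.43). Genes of the Hox clusters are known to be expressed in order along the body axis, with the higher-numbered genes further back. Hoxd9 (chr2:74528008-74530552) stood at 20.1, 23.5, 25.2 and 24.4 in the small intestine against 97.3 and 75.9 in the large bowel (-1.85 ± 0.16, adjusted p = 0.000278), Hoxd10 at 0.841, 1.76, 3 and 3.23 against 21.2 and 17.4 (-3.11 ± 0.50, adjusted p = 0.0056) and Hoxd8 at 39.8, 41.2, 38.1 and 42.3 against 66.1 and 57.2 (-0.56 ± 0.14, adjusted p = 0.0288). Hoxd4 (12.9, 18, 15.5 and 16.8 against 25 and 33.4, -0.88 ± 0.21, adjusted p = 0.0286) and Pitx1, a hindlimb and hindgut factor, at 0.35, 0.252, 0.231 and 0.961 against 7.49 and 7.72, were also higher there, Pitx1 as a description only. In none of these 5 genes did the groups overlap.

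Higher in the small intestine were Hoxb5 (27.1, 24.8, 19.4 and 20 against 7.49 and 9.65, 1.41 ± 0.29, adjusted p = 0.0157) and the Hox cofactors Meis1 (0.82 ± 0.18, adjusted p = 0.0188) and Meis2 (0.77 ± 0.21, adjusted p = 0.0415). Of the 8 calls, that of Hoxd9 held in every alternative, and the other 7 were lost without the cecum or without the large intestine. Hoxa7, a middle gene of its cluster, stood at 62.7, 68.7, 76.9 and 71.7 against 77.4 and 89.4 (-0.24 ± 0.13, adjusted p = 0.246). Hoxa9 and Hoxa10 separated the other kept barcodes by region, with Hoxa9 at 0.0842 to 1.23 in the small intestine and 46.7 and 31.8 in the large bowel, and Hoxa10 at 0.00701 to 0.0916 and 49.9 and 75.3. In members Hoxa9 stood at 1.33, 3.3, 3.46 and 7.19 against 17.5 and 10.3, and Hoxa10 at 0.0701, 0.14, 0.231 and 0.175 against 0 and 1.93, which was too low to test.

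**Figure D5:**
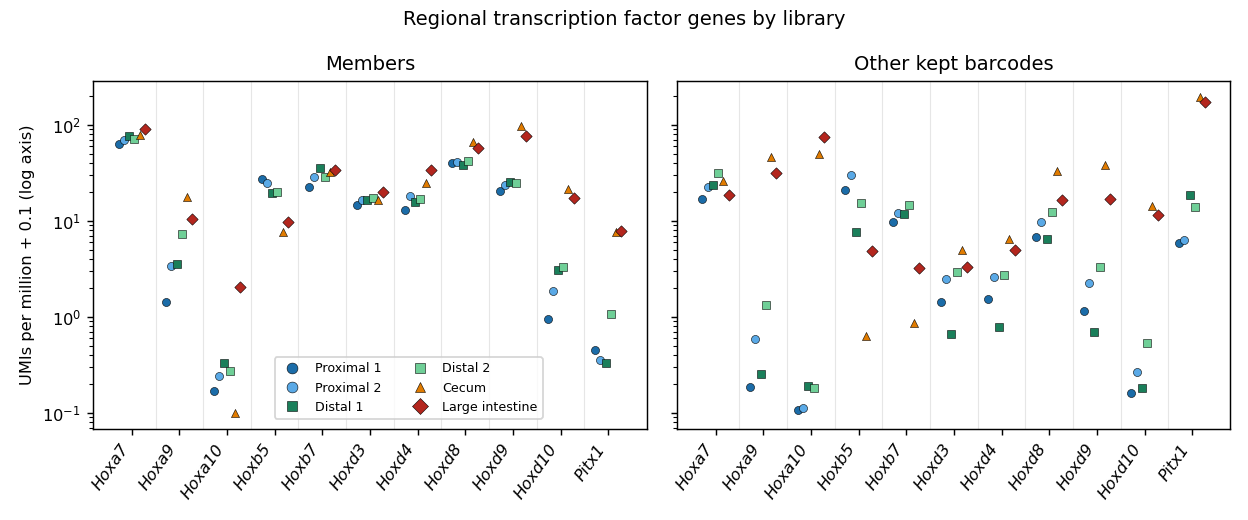
Levels of 11 regional transcription factor genes (x axis) in members (left) and other kept barcodes (right) as CPM plus 0.1 on a log axis, with 1 point per library. Hoxd9 and Hoxd10 separate the large bowel libraries from the small intestinal ones in both classes, and Hoxa10 does so only in the other barcodes, with the points near the bottom of the axis in members.

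The immediate early and heat shock genes, which cell dissociation is known to induce, differed between libraries of the same region. Their summed level in members was 12152 to 21573 in the small intestine, 33376 for the cecum and 11429 for the large intestine. Only Klf2, a shear-responsive endothelial factor, passed of the 23 genes (547, 679.7, 475 and 466 against 2319 and 1111, -1.65 ± 0.28, adjusted p = 0.00751), which is 4.35% of the list against 13.6% of all genes, and its call was lost without the cecum. Fos stood at 1317, 1477, 838 and 1193 against 2647 and 796 and Hspa1a at 932, 1372, 699 and 634 against 2320 and 954, with the cecum highest and the large intestine inside or near the small intestinal range. The median member, at 2500 UMIs, held 35, 50, 15 and 24 UMIs of these genes in the 4 small intestinal libraries, 69 for the cecum and 13 for the large intestine, and the 10th to 90th percentiles ran from 4 to 178 over the libraries. The part of this in the region calls was not tested.

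Proliferation genes gave 0 calls among 10 tested with edgeR, 0 at an unadjusted p under 0.05, and 0 with limma-voom or DESeq2. Mki67, which marks cycling cells, stood at 10.5, 3.08, 16.2 and 6.9 in the small intestine against 0 and 18 in the large bowel, and the 10 genes summed to 25 to 150 CPM over the libraries. Members with at least 10 UMIs of the list after thinning numbered 10, 6, 5 and 12 in the small intestine, with 0 for cecal and 1 for large intestinal members. Of the marker lists for other cells, 2 of 7 blood endothelial genes (Emcn, 0.74 ± 0.15, adjusted p = 0.0154, and Aqp1, 2.15 ± 0.21, adjusted p = 0.000468), 2 of 7 immune genes (Igkc, 5.07 ± 1.02, adjusted p = 0.0138, and Jchain, 5.11 ± 1.07, adjusted p = 0.0165), 1 of 10 fibroblast genes (Grem1) and 2 of 10 epithelial genes in opposite directions (Fabp2 and Car1) passed, where 13.6% of all genes did. Both epithelial genes entered through 1 region, Fabp2 at 11.5, 7.7, 3.92 and 6.67 against 0 and 0.643 and Car1 at 0.14, 0, 0 and 0.0582 against 1.25 and 12.2. In the direction of the small intestine alone, 7.74% of all genes passed. The Emcn call was kept in 12 of 16 alternatives. Aqp1 stood at 2443, 2356, 2367 and 1926 against 593 and 451. Of 9 smooth muscle and pericyte genes, 0 passed with edgeR and limma-voom, 1 with DESeq2, and 1 had an unadjusted p under 0.05, and the 1 glia gene tested passed with no tool. The Igkc and Jchain calls were lost when free RNA was subtracted, without either large bowel library and with limma-voom, and the Igkc and Jchain levels rest largely on the few members described above, whereas that of Aqp1 held in every alternative.

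The same region contrast was then set against that of the other kept barcodes, to ask which differences were not the same in both classes. In edgeR's test of the interaction over 20500 genes, 822 (4.01%) passed, 462 with a ratio of small intestine to large bowel that was higher in members than in the others (2.25%) and 360 with a lower one (1.76%). The sign does not say which class carried the difference. The median over all genes was 0.14 on the log2 scale, against which the values below are to be read. The other barcodes held lymphatic RNA too, and more of it in the small intestine, as the Prox1 levels above show. The 16 lymphatic identity genes had a median interaction of -0.74. With the left-out lymphatic barcodes removed from the others 1241 genes passed. The part of that RNA in the size of single values was not tested. The count was sensitive to the tool and libraries: 1440 genes passed with limma-voom, of which 17.9% were above 0, 1810 with DESeq2, of which 45.1% were, and 150 without the large intestine. In data simulated at these counts the test found 4% of genes changed 2-fold, so that a gene that did not pass was often beyond its reach.

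Of the genes named here, 15 of 51 interaction calls held in every alternative. The count includes Hoxa10, from whose call nothing is read for the reason given with the Hox genes. H2-Aa (interaction log2 fold change -2.49 ± 0.23, adjusted p = 0.00237), H2-Eb1 (-2.74 ± 0.26, adjusted p = 0.00247) and Cd74 (-2.67 ± 0.29, adjusted p = 0.00457) were among them, each with the lower ratio of small intestine to large bowel in members. H2-Ab1 (-2.26 ± 0.32, adjusted p = 0.0108) and H2-DMa (-1.87 ± 0.21, adjusted p = 0.00498) also passed and each lost the call without 1 large bowel library, whereas Tap1 (0.60 ± 0.11, adjusted p = 0.0283), a peptide transporter, and the immunoproteasome gene Psmb8 (0.81 ± 0.16, adjusted p = 0.0337) passed in the opposite direction, kept in 10 and 12 of 15 alternatives. Comp (-4.50 ± 0.37, adjusted p = 0.00188), Ptn (-4.29 ± 0.30, adjusted p = 0.00118), Htr2b (-4.11 ± 0.40, adjusted p = 0.0031), Slc8a1 (-3.50 ± 0.26, adjusted p = 0.00163), Tgfbi (-3.75 ± 0.44, adjusted p = 0.00545) and Ddah1 (-3.49 ± 0.28, adjusted p = 0.00188) held throughout as well. For Tgfbi the other barcodes stood at 130.1, 106, 219.6 and 175 in the small intestine and 64 and 204 in the large bowel, a small difference beside the one in members.

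With the higher ratio of small intestine to large bowel in members, Lpl (3.54 ± 0.33, adjusted p = 0.00252) and Emilin1 (1.17 ± 0.12, adjusted p = 0.00345) held in every alternative. In the other barcodes Lpl was higher in the large bowel (459.9 and 386) than in the small intestine (104, 149.7, 96.2 and 183), the opposite of the members. Wnt2 (6.40 ± 1.12, adjusted p = 0.0225) and Il33 (1.86 ± 0.21, adjusted p = 0.00466) passed but lost the call without the large intestine, Wnt2 also without the cecum and with limma-voom. Prkcb could not enter the region test without the small intestine, so its interaction value (6.10) is a description only. Cyp26b1 (4.79 ± 1.15, adjusted p = 0.064) and Fabp4 (3.50 ± 0.87, adjusted p = 0.0682) did not pass, nor did Pkd2l1, which had no UMI in large bowel members. Their levels in the other barcodes of the small intestine, with Cyp26b1 at 42, 77.6, 11.3 and 96.2, were also above those of the large bowel, at 3.77 and 6.64, in libraries whose other barcodes include those left out of the members.

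For several Hox genes the region difference was larger in the other barcodes. Hoxa9 (4.63 ± 0.46, adjusted p = 0.00322) and Hoxd10 (2.99 ± 0.48, adjusted p = 0.0171) had an interaction above 0, which for these genes means that the large bowel excess, as a ratio, was larger in the other barcodes than in members. Hoxb6 (-2.17 ± 0.32, adjusted p = 0.0137), Hoxb7 (-2.82 ± 0.44, adjusted p = 0.0153), Hoxb3 (-2.46 ± 0.46, adjusted p = 0.0268) and Hoxb4 (-2.42 ± 0.46, adjusted p = 0.028) had a small intestinal excess in the other barcodes that members lacked or had to a lesser degree. Hoxb7 stood at 22.4, 28.3, 35.5 and 28.6 against 32.4 and 34.1 in members and at 9.53, 12, 11.8 and 14.6 against 0.76 and 3.11 in the others. Those of Hoxa9, Hoxb6 and Hoxb7 held in every alternative, that of Hoxd10 was lost without the cecum or the large intestine, that of Hoxb3 without proximal 1, the cecum or the large intestine, and that of Hoxb4 without proximal 1. Hoxa10 was too low in members for the region test, so its interaction value is not given and nothing is read from its call.

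No gene passed the test between proximal and distal members. Of 15505 genes tested by edgeR, 0 passed (0.0%), 552 had an unadjusted p under 0.05, limma-voom also called 0 and DESeq2 called 29. With no filter on low counts 275 genes passed, and leaving out 1 library gave 1 to 45 genes. In data simulated at these counts the test recovered 53.5% of genes changed 2-fold, and 10.8% of its calls there were false. Along the small intestine, Fabp4 stood at 751, 571, 845 and 668 (proximal over distal, log2 -0.17 ± 0.20), Cyp26b1 at 473, 669.7, 442 and 719.7 (0.00 ± 0.28) and Hoxb5 at 27.1, 24.8, 19.4 and 20 (0.42 ± 0.13). The ranges of the proximal and distal libraries overlapped for Cyp26b1 and did not for Hoxb5, where both proximal libraries were above both distal ones.

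Members also varied among themselves within a library. The levels of class II, Wnt2 and other genes above are sums, which do not say how many members carried them, so the large bowel genes were counted per member. Of the 10 named large bowel genes, at least 3 were present in 61.9% of cecal members (99) and 78.3% of large intestinal members (155), against 1.96%, 1.65%, 3.72% and 2.28% of small intestinal members (42, 79, 25 and 126). After thinning to 2500 UMIs the shares were 38.8% and 49.5% against 0.561%, 0.355%, 1.34% and 0.308%. These genes were chosen on the same libraries, so the gap between regions is a description.

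Small intestinal members with at least 3 of the 10 genes were set beside those with none for genes outside the set, with no test. In the former Zmat4 stood at 25 to 50.8 CPM over the 4 libraries against 158 to 201 in members with none, Aqp1 at 991 to 1216 against 2087 to 2606, Fabp4 at 326 to 451 against 589 to 943 and Fgl2 at 1791 to 2452 against 1218 to 1432. These 4 genes were picked after their values were seen. Of the 10 named small intestinal genes, 8 were lower in the former in all 4 libraries, and Prkcb and Slc16a7 in 3. The former also carried more UMIs (library medians of 6305 to 10864 against 5173 to 6166) and more fibroblast RNA, with Col1a1 at 178 to 366 against 63.9 to 105, whose part in these values was not tested.

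Valve genes were spread over the members. At least 2 of 6 valve genes were present in 42.8% to 60.1% of members of each library, and Itga9, also found in capillaries, was the one most members had. The summed interferon genes of a thinned member had library medians of 10, 10, 12 and 10 UMIs in the small intestine, 15 for cecal members and 16 for those of the large intestine. The 99th percentiles were 37 to 56. The large bowel medians were above those of every small intestinal library, a difference carried mainly by Ifitm3: without it the other 18 genes summed to 3136 to 3464 CPM in the small intestine, 3215 for the cecum and 3866 for the large intestine. For the lipid list the medians were 4, 4, 5 and 5 in the small intestine, 3 for the cecum and 2 for the large intestine.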

How the data were processed

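Single-cell 3′ libraries (10x Genomics v3.1) of sorted lamina propria cells were analysed from the raw barcode matrices that the authors deposited, whose values are counts of UMIs per gene and barcode; the labels name Cell Ranger 8.1.0 and the matrix headers 8.0.1, with a mouse mm39 genome to which tdTomato was added. The matrices hold all barcodes, empty ones included, so the study's removal of doublets and ambient RNA had not been applied to them, and no doublet caller was run here. Barcodes with 1000 to 7500 genes, 2500 to 40000 gene UMIs and under 10% mitochondrial UMIs were kept. The members and the gene lists were chosen with earlier results of these data known.

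Counts were summed over members per library and tested with edgeR 4.0.16 (quasi-likelihood, genes kept by filterByExpr with a minimum count of 10, 14102 of 33697 genes for the region test; no block; adjusted p under 0.05). The interaction was fitted on members and other kept barcodes with the library as a block. The standard error is the absolute log2 fold change over the square root of F. limma 3.58.1 (voom, the test the study's methods name) and DESeq2 1.42.0 (R 4.3.3) were alternatives, beside no filter on low counts and leaving out each library. Others were free RNA subtraction (from barcodes of at most 100 UMIs), at least 4 lymphatic genes, several hashtags removed, and at most 20000 UMIs. Removal of several hashtags kept barcodes with no called hashtag. Removal of fibroblast-rich members and of other lymphatic barcodes was chosen after seeing the data. The free RNA subtraction took a fixed 10% of each sum, a share that was not estimated from the data. Single shares have exact Clopper-Pearson 95% intervals. On simulated counts with 200 genes changed 2-fold, the region test (14102 genes) recovered 41.5%, with 5.68% of its calls false, and the interaction test (20500 genes) 4%, with 11.1% false. Levels are CPM (UMIs per 1e6 UMIs of the sum), and ratios between classes had 5 CPM added.

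Genes were named by rule: the rule's own genes; the 25 with the largest lowest ratio to the other barcodes, at 50 or more CPM; up to 10 per direction with the largest region fold change among calls whose libraries did not overlap, at 20 or more CPM and no lower than in the other barcodes; and members of 19 lists that passed or were best expressed. Selp, Cd52, C1qa, C1qb, Lyz2, Vwf and other genes named without a call were picked after their values were seen. Gene positions are from GENCODE vM39 on GRCm39. Columns of the authors' own comparisons were not among the data used. A few genes of the lists are not reported here, and the list counts leave them out.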

Additional observations from a re-analysis of the deposited data

Results flagged for a closer look

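Among 109 named genes, 5 had 1 small intestinal library far from the other 3 in members, where chance flags about 1 in 20 groups. Aqp1 was lowest in distal 2 (1926 CPM, against 2356 to 2443 in the others) and Mmrn1 lowest in distal 1 (4278, against 4960 to 5098). H2-Eb1 was highest in distal 1 (94.9, against 74.9 to 76.3), as was Ifitm3 (2125, against 1380 to 1492). Pitx1 was highest in distal 2 (0.961, against 0.231 to 0.350).

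In 31 of the 109 genes the region difference was not the same in members and other kept barcodes by the interaction test, against 4.01% of all genes; most of the 109 had passed the region test, so the shares are not comparable (log2 scale, positive where the ratio of small intestine to large bowel was higher in members than in the others). Positive were Wnt2 (6.40), Prkcb (6.10), Adamts15 (5.04), Slc16a7 (4.13), Lpl (3.54), Sult5a1 (3.02), Hoxd10 (2.99), Heyl (2.87), Il33 (1.86), Ifit2 (1.21), Emilin1 (1.17), Plxnd1 (1.15) and Nrp2 (1.02). Negative were Clca3a1 (-5.03), Comp (-4.50), Ptn (-4.29), Htr2b (-4.11), Tgfbi (-3.75), Slc8a1 (-3.50), Ddah1 (-3.49), Ccl5 (-3.44), Pkhd1l1 (-3.17), Stmn2 (-3.13), E330013P04Rik (-3.03), H2-Eb1 (-2.74), Cd74 (-2.67), H2-Aa (-2.49), Sphk1 (-2.34), H2-Ab1 (-2.26), H2-DMa (-1.87) and Rspo3 (-0.94). For Hoxd10 the positive value reflects a large bowel excess that was, as a ratio, larger in the other barcodes. The limit given above for lymphatic RNA in the other barcodes also applies to these values, such as that of the lymphatic gene Clca3a1. E330013P04Rik entered the region test only through the large bowel, and Prkcb, Adamts15, Slc16a7 and Sult5a1 only with the small intestine. Their interaction values are counted among the 31 but are given as a description only. The Rspo3 call was kept in 7 of 15 alternatives. It was lost without proximal 1, proximal 2, the cecum or the large intestine, with limma-voom and with free RNA subtracted. It was also lost with several hashtags removed and with the other lymphatic barcodes removed. Others were lost in several alternatives too. Stmn2 and Ifit2 were kept in 9 of 15, and Heyl, Nrp2 and Plxnd1 in 11.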

How the results depend on the processing

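The depth of the large bowel members, 160 and 198 barcodes, limits what can be said of genes under a few UMIs, and each large bowel region has 1 library, so that region and library cannot be told apart, and the hashtags within a library are not tied to mice by the labels. The direction of the share between small intestine and large bowel was the same in all alternatives, 12.7 to 20.7 points with 1 library left out, and 24.9 points when no gene was excluded. That between proximal and distal ran from -7.59 to 16.4 points with 1 library left out.

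The count of genes that differed between small intestine and large bowel (1923) was 1268 with limma-voom, 1039 with the replicate block and 1109 with the small intestinal replicate 1 libraries only, and 676 to 2685 with 1 library left out. With the 4-fold limit lowered to 2-fold, 693 genes were higher and 1004 lower in members than in other barcodes. Between proximal and distal, 29 genes passed with DESeq2, 275 with no filter on low counts and 1 to 45 with 1 library left out, against 0. The interaction count (822) was 1440 with limma-voom, 1810 with DESeq2, 1241 with other lymphatic barcodes removed, and 150 to 1104 with 1 library left out. The median interaction over all genes was 0.14 with edgeR, -0.22 with limma-voom and -0.08 with DESeq2.

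Reversed were Ccl5 without the large intestine (7.81 for the region and 8.37 for the interaction, with lowest values of -4.14 and -3.65 when another library was left out) and the Zmat4 interaction, which was not called (-0.30 without distal 1, -0.22 without the cecum, 2.19 without the large intestine). The cause was not tested. Of the other values for named genes, 166 lost the call in the region test and 126 in the interaction test, and 11 gained it in the latter.

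The replicate numbers of the labels paired the small intestinal libraries as a check only: deviations of same-numbered libraries correlated at 0.315 over 8466 genes, and the numbers also go with the hashtag set. With the block, 1039 genes passed for the region and 0 between proximal and distal.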
